A study of Danio rerio with 32 samples.

Results

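The genes gata2a, fli1, kdrl, tie1, lmo2 and tal1, which mark endothelial cells and the precursors shared by vessels and blood, were followed in cultured zebrafish muscle cells. They were chosen by name: all probe sets whose annotated symbol, current or older, was a listed gene were taken. All 6 genes were measured, by 7 of the 15502 probe sets analysed and among 8793 genes with a symbol. The gene fli1 had 2 probe sets, named fli1-A1 and fli1-S1 here after the ends of their identifiers on the array, and each other gene had 1.

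The cells were zebrafish mononuclear myogenic cells (zMNCs), prepared in the study from pooled dorsal muscle of adult fish of an α-actin–RFP transgenic line, in which an actin promoter drives a red fluorescent reporter in muscle. They were expanded in growth medium with fetal bovine serum and fibroblast growth factor and then moved to a medium with little horse serum in which myogenic cells fuse. All groups were made by this kind of preparation, and they differ in the day of culture (0, 1, 4, 7, 10 or 14) and in the batch. The medium can change with the day of culture, and their parts cannot be told apart here. The preparation included lysis of red blood cells, a density gradient and a plating step, and its methods describe no sorting by a vessel or blood marker, so that other cells of muscle tissue could be present.

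RNA was hybridized to 32 Affymetrix Zebrafish Genome Arrays. Batch 1 had 12 arrays from 1 hybridization run and batch 2 had 20 arrays from 4 runs. The labels grade 24 arrays good and 8 poor. Day 0 replicate B of batch 1 was left out: its scale factor was 915, and no other array correlated with it above 0.196. The 31 other arrays fell into 9 of days 0–1 (3 of batch 1 and 6 of batch 2), 6 of day 4 (2 and 4), 7 of day 7 (2 and 5) and 9 of days 10–14 (4 and 5). The signals below are the deposited MAS5 intensities after quantile normalization, a scaling that gives every array the same distribution. A log2 change is a difference of means of log2(signal + 32), and a call means a limma adjusted p under 0.05, adjusted over all probe sets. Signals of different probe sets are not set against each other, because their probes bind with different strength.

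In the embryo, the transcription factors Tal1 and Lmo2 act together in cells of the lateral mesoderm that give rise to blood and vessels. Lmo2 binds no DNA itself and bridges Tal1 and GATA factors, of which Gata2 is the member used in early blood precursors and in endothelium. Fli1 is an ETS-family factor of endothelial and blood cells, Kdrl is a receptor for vascular endothelial growth factor (VEGF), and Tie1 is an endothelial receptor related to Tek, the receptor of the angiopoietins. In adult muscle, these genes are known from the capillaries that run between the fibres and from blood cells within them.

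From days 0–1 to days 10–14, kdrl, gata2a, fli1 (by the probe set fli1-A1) and lmo2 fell, with log2 changes of -2.84, -2.68, -2.03 and -1.79 over the 31 arrays. The probe sets of tie1 and tal1 and the other fli1 probe set, fli1-S1, were not called in that comparison. Thus 4 of 7 member probe sets were called lower, beside 17% of all probe sets. Over all probe sets 2640 were called lower and 3447 higher, and without the quantile step, on the authors' scaling alone, these numbers were 3421 and 2849. The median change over all probe sets was 0.07, and -0.15 with the authors' scaling. In a bulk sample, fewer cells of a type and less RNA of a gene per cell cannot be told apart.

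**Figure D1:**
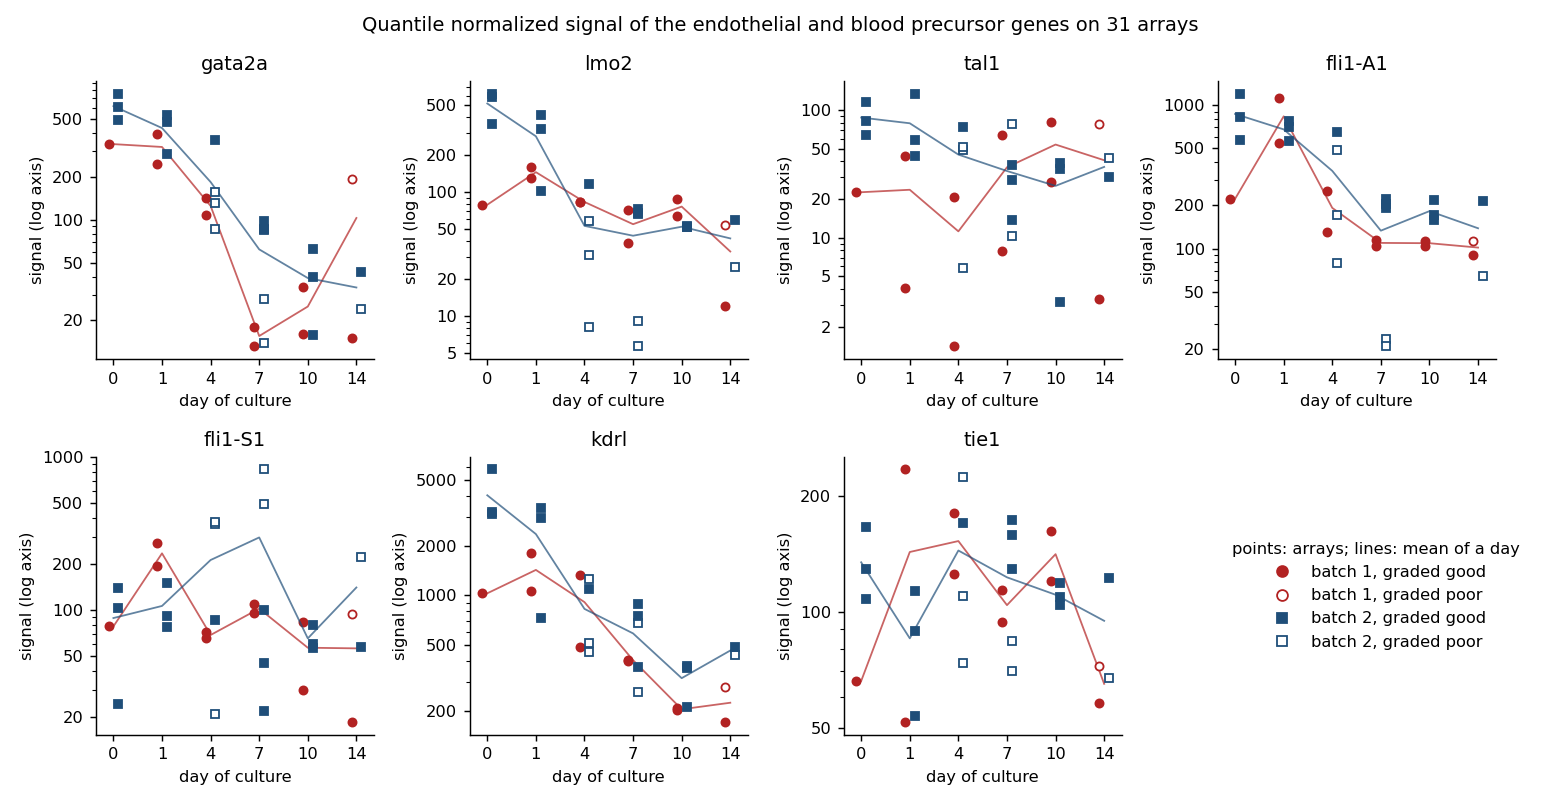
Quantile normalized signal (log axis) of the 7 member probe sets by day of culture on 31 arrays; each point is an array, filled where it was graded good, and each line joins the means of a batch. Signals of kdrl ran from between 730 and 5814 at days 0–1 to between 170 and 489 at days 10–14, whereas those of tie1 covered 51.7 to 234 and 57.9 to 162.

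The VEGF receptor gene kdrl fell in both batches, and in each its mean signal by day was highest at days 0 and 1. In batch 1, its signal was 1029 at day 0, 1058 and 1795 at day 1, 484 and 1335 at day 4, 407 and 401 at day 7, 206 and 201 at day 10, and 170 and 276 at day 14. In batch 2, it was 3218, 3112 and 5814 at day 0, 2963, 730 and 3369 at day 1, 1088, 454, 1257 and 511 at day 4, 258, 679, 366, 886 and 748 at day 7, 372, 209 and 362 at day 10, and 436 and 489 at day 14. All arrays of days 10–14 lay below all arrays of days 0–1 in each batch. Day 1 replicate B of batch 2, at 730, lay far below the other early arrays of its batch and still above every late one. The change from days 0–1 to days 10–14 was -2.84 (SE 0.320, adjusted p = 6.5e-08), a 7.16-fold decrease on the scale with the offset. Within batch 1 the log2 change was -2.41 (SE 0.348, limma adjusted p = 0.0011), and within batch 2 it was -3.15 (SE 0.451, limma adjusted p = 4.5e-05).

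The other receptor gene of the set, tie1, was not called, and whether its change differed from that of kdrl was not tested. Its signal in batch 1 was 66.1 at day 0, 51.7 and 234 at day 1, 180 and 125 at day 4, 114 and 94.0 at day 7, 162 and 120 at day 10, and 57.9 and 72.1 at day 14. In batch 2, tie1 ranged from 53.7 to 166 with a median of 110 at days 0–1, and read 109, 104, 119, 67.4 and 122 on the arrays of days 10–14. Early and late arrays overlapped in both batches. The change was -0.01 on the log2 scale (SE 0.223, limma adjusted p = 0.98), with a 95% interval from -0.47 to 0.45. Under the authors' scaling alone it was -0.41 (limma adjusted p = 0.19). The tie1 signal was below the median signal of its array on 27 of the 31 arrays, and a dim probe set can understate a change.

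Among the transcription factor genes, gata2a fell in both batches and was the only member also called from day 4 to day 7. In batch 1, its signal was 336 at day 0, 246 and 396 at day 1, 142 and 108 at day 4, 13.2 and 18.0 at day 7, 16 and 34 at day 10, and 15.1 and 191 at day 14. In batch 2, it was 607, 753 and 491 at day 0, 538, 288 and 478 at day 1, 361, 130, 155 and 87.1 at day 4, 13.9, 28.4, 85.1, 98.1 and 86.4 at day 7, 62.4, 15.9 and 40.0 at day 10, and 24.1 and 43.7 at day 14. At day 7 of batch 2, the signals of 13.9 and 28.4 were of arrays graded poor, from another run than the others of that day. The early and late arrays did not overlap in either batch. The late array nearest to the early ones, at 191, was day 14 replicate B of batch 1, which is graded poor. The log2 change was -2.68 over both batches (SE 0.265, limma adjusted p = 7.6e-09), -2.21 in batch 1 (SE 0.483, limma adjusted p = 0.0071) and -3.02 in batch 2 (SE 0.283, limma adjusted p = 8.5e-07).

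The gene lmo2, which encodes the bridging LIM-only protein, had a log2 change of -1.79 over both batches (SE 0.335, limma adjusted p = 9.5e-05). In batch 2, its signal was 352, 621 and 579 at day 0, 419, 101 and 324 at day 1, 115, 31.1, 58.8 and 8.13 at day 4, 5.67, 9.02, 66.3, 67.6 and 73.2 at day 7, 52.3, 52.2 and 52.8 at day 10, and 25.0 and 59.4 at day 14. At day 7 of batch 2, the signals of 5.67 and 9.02 were of arrays graded poor, from another run than the others of that day. All late arrays of batch 2 lay below all early ones, and the change was -2.45 (SE 0.397, limma adjusted p = 1.5e-04). In batch 1, lmo2 started lower, at 78.9 at day 0 and 130 and 159 at day 1, and read 83.5 and 82.6 at day 4, 71.0 and 38.9 at day 7, 88.5 and 63.9 at day 10, and 12.1 and 54.1 at day 14. There the groups overlapped, and the change of -0.89 (SE 0.353) was not called (limma adjusted p = 0.084). With the authors' scaling alone it was -1.66 in batch 1 and was called (limma adjusted p = 0.0051). The lmo2 signal was below the median signal of its array on 26 of the 31 arrays, and a dim probe set can understate a change. The difference between the 2 batches was itself tested: the batch 1 change minus the batch 2 change of lmo2 was 1.56 (SE 0.576, limma adjusted p = 0.11).

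The gene tal1, which encodes the basic helix-loop-helix partner of Lmo2, was dim throughout. Its signal was below the median of its array on 31 of 31 arrays and ranged from 1.41 to 135. In batch 1, tal1 read 22.8 at day 0, 4.07 and 43.6 at day 1, and 80.6, 27.2, 3.32 and 77.9 on the arrays of days 10–14, and the groups overlapped. In batch 2, tal1 ranged from 43.7 to 135 with a median of 73.1 at days 0–1 and read 38.9, 34.7, 3.12, 42.2 and 29.8 at days 10–14, with no overlap. The nearest early and late signals of batch 2, 43.7 and 42.2, were close together. The change was 0.43 in batch 1 (SE 0.477, limma adjusted p = 0.54), -0.20 there with the authors' scaling alone, and -0.88 in batch 2 (SE 0.330, limma adjusted p = 0.058). The batch 2 change was called with run as a random block (-0.89, limma adjusted p = 0.027), with batch in place of run (-0.89, limma adjusted p = 0.030), with good arrays alone (-0.95, limma adjusted p = 0.032) and without day 7 replicate B (limma adjusted p = 0.027). Over both batches the tal1 change was -0.27 (SE 0.295, limma adjusted p = 0.51), with a 95% interval from -0.87 to 0.34. The batch 1 change minus the batch 2 change was 1.31 (SE 0.571, limma adjusted p = 0.18).

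The 2 probe sets of fli1 gave different accounts of this gene. With fli1-A1, the signal in batch 1 was 222 at day 0, 547 and 1121 at day 1, 253 and 131 at day 4, 114 and 105 at day 7, 105 and 113 at day 10, and 90.2 and 113 at day 14. In batch 2 it was 572, 1200 and 828 at day 0, 700, 561 and 769 at day 1, 653, 171, 488 and 79.0 at day 4, 23.6, 20.8, 206, 193 and 223 at day 7, 158, 171 and 218 at day 10, and 64 and 213 at day 14. Late arrays lay below early arrays in both batches without overlap. The log2 change was -2.03 over both batches (SE 0.322, limma adjusted p = 1.2e-05), -2.01 in batch 1 (SE 0.431, limma adjusted p = 0.0065) and -2.12 in batch 2 (SE 0.435, limma adjusted p = 0.0012).

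With fli1-S1, the change over both batches was -0.52 (SE 0.399) and was not called (limma adjusted p = 0.32). In batch 1 it read 78.3 at day 0, 195 and 276 at day 1, and 30.1, 83.5, 18.5 and 94.0 on the arrays of days 10–14, so that the groups overlapped. That change of -1.27 was called (SE 0.411, limma adjusted p = 0.042), but only 3 of the 11 fits that leave out an array kept the call. In batch 2 the change was 0.04 (SE 0.543, limma adjusted p = 0.97). The fli1-S1 signal was below the median signal of its array on 24 of the 31 arrays, so that a change could be understated.

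Signals of fli1-S1 moved with the quality grade in batch 2. On the 6 arrays graded poor it ranged from 21.0 to 835 with a median of 372, and on the 14 graded good from 21.8 to 150 with a median of 78.9. The poor arrays at 365 and 380 (day 4), 495 and 835 (day 7) and 224 (day 14) lay above every good array of the batch, while the poor array at 21.0, of day 4, did not. On these same poor arrays fli1-A1 had a median of 71.5, against 392 on the good ones, and the grades are not spread evenly over the days. With the good arrays alone, fli1-S1 changed by -0.74 (limma adjusted p = 0.053) and fli1-A1 by -1.90 (limma adjusted p = 1.1e-05). Over 31 arrays, with each hybridization run centred, the log2 signals of the 2 probe sets had a Pearson r of -0.22. The part of array quality in this difference was not tested further.

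**Figure D2:**
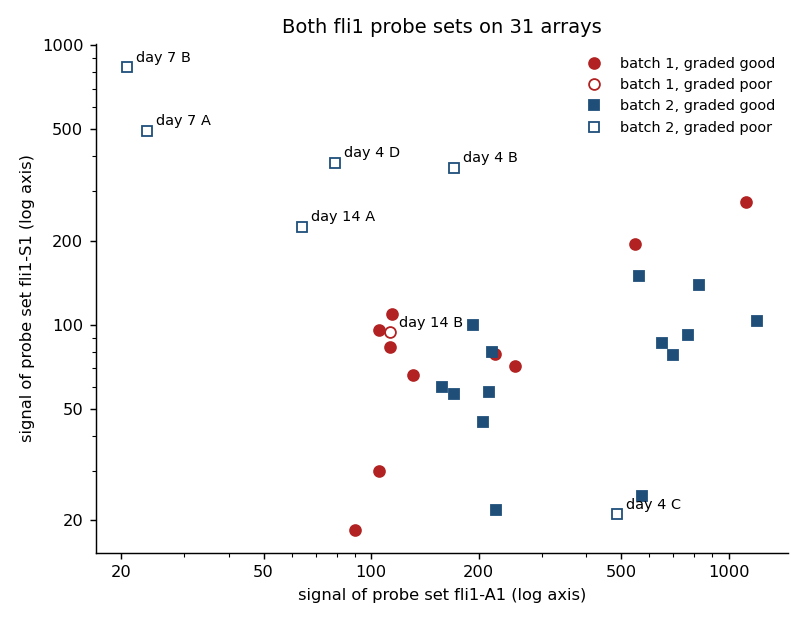
Signals of both fli1 probe sets (log axes) on 31 arrays, by batch and quality grade, with the day and replicate letter of arrays graded poor. Of the 6 poor arrays of batch 2, 5 sit at upper left, with fli1-S1 between 224 and 835 and fli1-A1 between 20.8 and 171.

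Within batch 1, 4 of 7 member probe sets were called lower (gata2a, kdrl and both of fli1), beside 11.7% of all probe sets. Within batch 2, 4 of 7 were called lower (gata2a, kdrl, lmo2 and fli1-A1), beside 12.1%. Late arrays lay wholly below early ones for 3 of 7 in batch 1, beside 14.7% of all probe sets, and for 5 of 7 in batch 2, beside 8.61%. In batch 1 with the authors' scaling alone, 4305 probe sets of all were lower and 2095 higher, against 1821 and 2481, and the median change moved to -0.43 from 0.03. The members called in batch 1 were called there too. For no member was the difference between the batches called. Within the hybridization runs that held both early and late arrays, kdrl changed by -2.95, -3.65 and -2.41 and gata2a by -2.68, -3.16 and -2.21, in runs 1 and 3 of batch 2 and in the run of batch 1, with 1 to 4 arrays on a side.

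**Figure D3:**
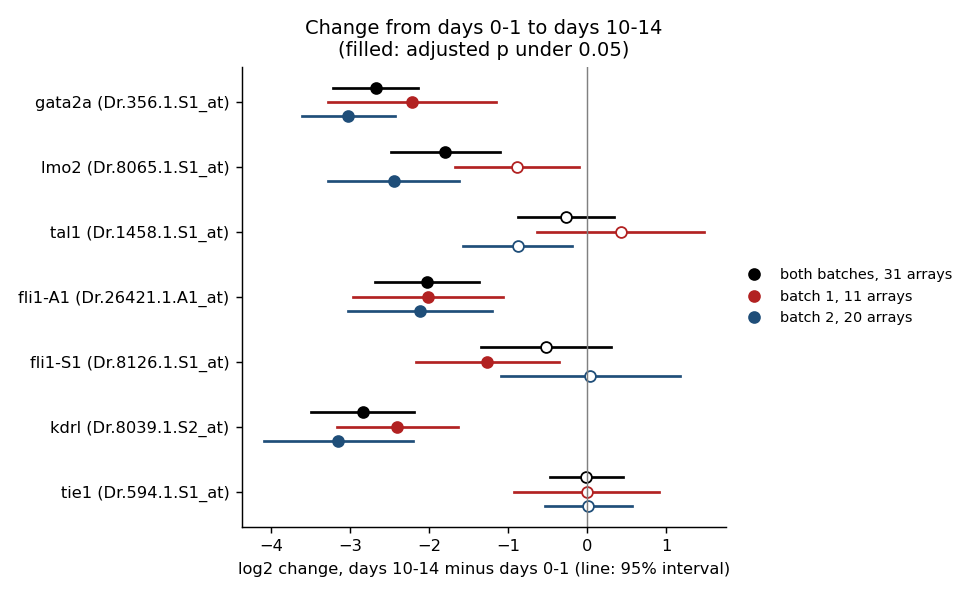
Change in log2(signal + 32) from days 0–1 to days 10–14 (points) with 95% intervals (lines) for each member probe set, over both batches (31 arrays), in batch 1 (11 arrays) and in batch 2 (20 arrays); filled points had an adjusted p under 0.05. The intervals of kdrl, gata2a and fli1-A1 lie below 0 in all 3 fits, and those of tie1 cross 0 in all 3.

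Array brightness and RNA quality moved with the day in batch 1. The mean intensity before scaling was 21.4 to 49.5 at days 0–1 and 122 to 158 at days 10–14, and the 3′ to 5′ signal ratio of the GAPDH control, which rises as RNA is degraded, was 1.74 to 2.43 and 1.26 to 1.39. In batch 2 these ranges overlapped, at 182 to 636 and 214 to 847 for intensity and 3.34 to 9.72 and 2.52 to 12 for the ratio. On every array of these days the ratio was higher in batch 2 than in batch 1. The falls of kdrl, gata2a, fli1-A1 and lmo2 within batch 2 had log2 changes of -3.15, -3.02, -2.12 and -2.45. With the GAPDH ratio in the fit of both batches the changes were -2.83, -2.70, -1.87 and -1.71, and all 4 were called. The part of brightness and RNA quality in these falls was not tested further.

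The course of the fall was followed step by step. From day 0 to day 1, 0 of the 15502 probe sets were called by limma, with 854 at an unadjusted p under 0.05, and no member was called. The log2 changes of that step were -0.64 for kdrl (SE 0.422), -0.63 for lmo2 (SE 0.436), -0.41 for gata2a (SE 0.354) and 0.27 for fli1-A1 (SE 0.430), with 4 arrays of day 0 and 5 of day 1. The 95% intervals were wide, from -1.5 to 0.23 for kdrl and from -1.52 to 0.27 for lmo2. With so few arrays, the tests do not show that the levels at days 0 and 1 were alike.

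Between days 0–1 and day 4, 4 of 7 member probe sets fell, beside 11.8% of all probe sets. The log2 changes were -1.67 for lmo2 (SE 0.354, limma adjusted p = 9.5e-04), -1.41 for fli1-A1 (SE 0.340, limma adjusted p = 0.0029), -1.36 for gata2a (SE 0.279, limma adjusted p = 7.1e-04) and -1.35 for kdrl (SE 0.338, limma adjusted p = 0.0039). Of the 6 arrays of day 4, 3 are graded poor. With the good arrays alone, gata2a was called at this step (-1.03, limma adjusted p = 0.013), whereas kdrl (-1.10, limma adjusted p = 0.077), lmo2 (-0.97, limma adjusted p = 0.12) and fli1-A1 (-0.86, limma adjusted p = 0.099) were not. With the GAPDH ratio in the fit, the change of fli1-A1 was -1.03 and was not called (limma adjusted p = 0.084), and that of tal1 moved from -0.51 to -1.04 and was called (limma adjusted p = 0.042). With day 0 replicate B of batch 1 included, fli1-A1 was not called either (-1.16, limma adjusted p = 0.055). The tie1 change at this step was 0.33 (SE 0.236, limma adjusted p = 0.32).

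Between day 4 and day 7, gata2a alone of the 7 was called lower, by 1.48 (SE 0.349, limma adjusted p = 0.027), beside 0.929% of all probe sets. In batch 1 its signals of 142 and 108 at day 4 and of 13.2 and 18.0 at day 7 did not overlap, and in batch 2 the lowest array of day 4, at 87.1, lay within the day 7 range of 13.9 to 98.1. This call was lost in 5 of the 31 fits that leave out an array: those without day 4 replicate A of either batch, day 7 replicate A of either batch or day 7 replicate B of batch 1 (limma adjusted p from 0.066 to 0.11). It was also lost with the replicate letter as a block (-1.38, limma adjusted p = 0.067) and with day 0 replicate B of batch 1 included (-1.51, limma adjusted p = 0.085). Changes of fli1-A1 (-1.20, SE 0.425, limma adjusted p = 0.13) and kdrl (-0.95, SE 0.422, limma adjusted p = 0.23) did not pass the test. From day 7 to days 10–14 no member was called, and of all probe sets 4 were called, all higher. For gata2a that last change was 0.16, with a 95% interval from -0.43 to 0.74. For kdrl it was -0.55, with an interval from -1.25 to 0.16.

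**Figure D4:**
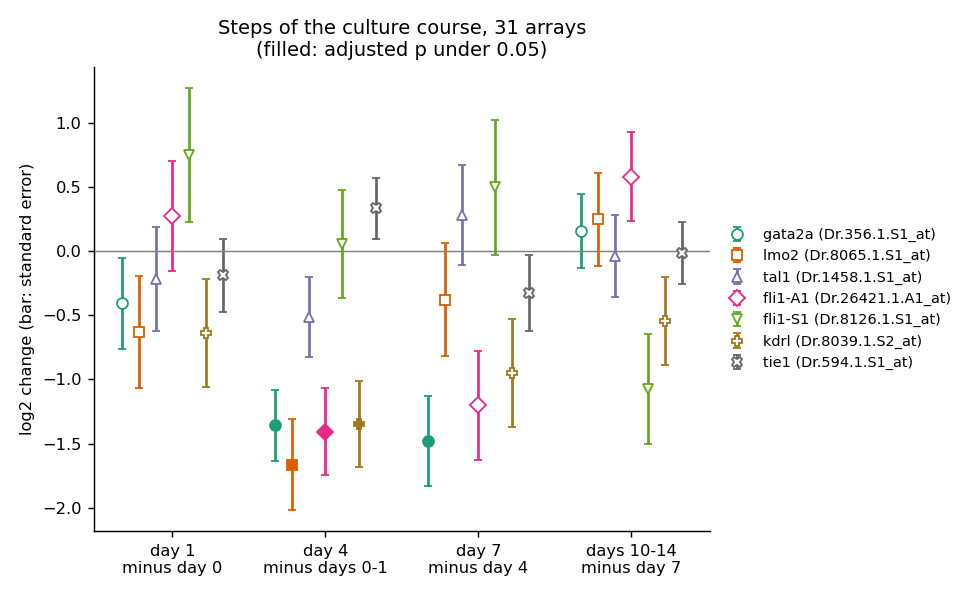
Log2 change of each member probe set (points, with standard errors) at 4 successive steps of the culture over 31 arrays; filled points had an adjusted p under 0.05. The 4 filled points of the step to day 4 lie between -1.35 and -1.67, and the filled point of the step to day 7 is gata2a at -1.48.

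The members that fell also varied together from array to array. With each run centred, the log2 signals over 31 arrays had a Pearson r of 0.86 for gata2a and kdrl, 0.85 for fli1-A1 and lmo2, 0.82 for kdrl and lmo2, 0.82 for gata2a and fli1-A1, 0.78 for gata2a and lmo2, and 0.77 for kdrl and fli1-A1. The arrays share days, cultures and array quality, so that these values describe the set and carry no test. For tie1, r with every other member probe set lay between -0.01 and 0.20. For tal1, it was 0.41 with lmo2, 0.35 with kdrl, 0.32 with gata2a and 0.21 with fli1-A1.

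Outside the members, the genes whose run-centred signals were most like gata2a were aqp8a.1, an aquaporin water channel (r = 0.96), mb, myoglobin (r = 0.95), and cfd, complement factor D (r = 0.95). Their log2 changes from days 0–1 to days 10–14 were -5.62, -5.18 and -3.98. Most like kdrl were mid1ip1l (r = 0.93), ptprb, a receptor-type tyrosine phosphatase of endothelium in mammals (r = 0.91), and prelid3b (r = 0.90). Most like lmo2 were tppp3 (r = 0.93), plk2b, a polo-like kinase (r = 0.93), and slc14a2, a urea transporter (r = 0.92). Most like fli1-A1 were syne1b, which encodes a nuclear envelope protein (r = 0.96), ccnl1b, a cyclin L (r = 0.95), and fam222aa (r = 0.94). For fli1-S1 they were uts1 (r = 0.85), clocka (r = 0.82) and fem1a (r = 0.81), none of which was called (log2 changes -0.50, -0.35 and -0.38). No gene came as near to tie1 or tal1, whose highest values were 0.70 with fech, the last enzyme of haem synthesis, and 0.62 with si:ch73-52f24.4.

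The receptors and ligands that work beside Kdrl and Tie1 moved in both directions. Of 12 measured receptors of VEGF, angiopoietin and vessel guidance, 4 fell and 2 rose, with a median log2 change of -0.10. Over all 8793 genes the median was 0.10, and 1520 fell and 2226 rose. The counts of each list below are to be read beside these shares of all genes. The angiopoietin receptor gene tek, the nearest relative of tie1, fell by 1.76 (SE 0.30, limma adjusted p = 3.3e-05). The gene flt4, the receptor of VEGF-C, fell by 0.76 (SE 0.23, limma adjusted p = 0.0091). Within batches 1 and 2 alone, flt4 was not called (-0.84 and -0.58, limma adjusted p = 0.059 and 0.19). The chemokine receptor genes ackr3b and cxcr4a fell, with log2 changes of -2.84 and -2.54. The paper treats cxcr4a as a marker of myogenic stem cells that falls as the cultured cells fuse. The VEGF co-receptor genes nrp1a and nrp2b rose, with log2 changes of 1.14 and 1.08. The nrp1a rise was called in batch 2 (1.82, limma adjusted p = 3.6e-04) and not in batch 1 (0.34, limma adjusted p = 0.5). The nrp1a probe set was dim, with a median signal of 19.8 at days 0–1.

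Of 8 measured vessel ligands, 2 fell and 3 rose, with a median of 0.45. The ligand of Kdrl, vegfaa, changed by -0.30 (SE 0.25, limma adjusted p = 0.37) and was not called. The genes angptl4, angpt1, which encodes the ligand of Tek, and vegfc, which encodes that of Flt4, rose by 1.34, 1.14 and 0.84. The vegfc rise was called in batch 2 (1.07, limma adjusted p = 0.021) and not in batch 1 (0.72, limma adjusted p = 0.056). The gene apln, which encodes the ligand of the apelin receptor, fell by 1.93, and its receptor gene aplnra fell by 1.99. The semaphorin gene sema3d fell by 1.04, called in batch 1 (-1.89, limma adjusted p = 0.0019) and not in batch 2 (-0.36, limma adjusted p = 0.49).

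Of 20 other endothelial transcription factor genes, 10 fell and 2 rose, with a median of -0.72. The log2 changes were -3.82 for klf2b, -2.92 for epas1b, a hypoxia-inducible factor, -2.91 for ets2 and -1.34 for klf6a. The gene klf2a, a relative of klf2b, changed by -0.74 (SE 0.34, limma adjusted p = 0.083) and was not called. Within batch 1 it was called (-1.45, limma adjusted p = 0.015), and within batch 2 it was not (0.06, limma adjusted p = 0.93). The ETS-family genes erg and fli1rs, relatives of fli1, also fell, erg by 1.74 (SE 0.27, limma adjusted p = 1.1e-05) and fli1rs by 1.25 (SE 0.38, limma adjusted p = 0.011). The fli1rs change was called in batch 2 (-1.64, limma adjusted p = 0.0032) and not in batch 1 (-0.90, SE 0.73, limma adjusted p = 0.39). The summed signal of the list was 11658 to 15188 at days 0–1 and 3326 to 5005 at days 10–14 in batch 1, without overlap, and 7032 to 24613 and 6496 to 11193 in batch 2, with overlap. Such a sum adds signals of different probe sets and weighs the bright ones most. Here these were klf6a, klf2a, klf2b and ets2, with medians of 5109, 3007, 2979 and 2888 at days 0–1.

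Of 14 measured genes listed around the complex of Tal1, Lmo2 and Gata2, 2 fell and 3 rose, with a median of -0.27. These counts are not above the shares of all 8793 genes, of which 1520 fell and 2226 rose. The list holds cofactors of the complex, and also other GATA and LIM-only genes and the Id inhibitors. The GATA factor gene gata3 fell by 1.48 (SE 0.27, limma adjusted p = 6.7e-05), and gata1a, the factor of red cell precursors, changed by -0.25 (limma adjusted p = 0.56). The gata3 fall was called in batch 2 (-1.64, limma adjusted p = 7.9e-05) and not in batch 1 (-1.33, limma adjusted p = 0.082). Of the LIM-binding cofactors, ldb1a rose by 0.83 (SE 0.15, limma adjusted p = 5.6e-05) and ldb1b changed by 0.39 (limma adjusted p = 0.22). The ldb1a rise was called in batch 2 (0.97, limma adjusted p = 0.002) and not in batch 1 (0.62, limma adjusted p = 0.08). The probe sets of gata1a and ldb1b were dim, with median signals of 60.4 and 24.7 at days 0–1, so that a change could be understated. The E-proteins that pair with Tal1 were not called, at 0.35 for tcf3a and -0.28 for tcf12. The LIM-only gene lmo4b, a relative of lmo2, rose by 2.62 (SE 0.31, limma adjusted p = 1.3e-07), opposite in sign to lmo2. The gene ssbp3b, which encodes a partner of Ldb1, rose by 0.48, but was not called within batch 1 or batch 2 alone (limma adjusted p = 0.24 and 0.12). The helix-loop-helix inhibitor gene id3 fell by 1.00, called in batch 1 (-1.66, limma adjusted p = 0.0064) and not in batch 2 (-0.50, limma adjusted p = 0.37).

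Of 24 blood precursor regulators, 10 fell and 3 rose, with a median of -0.56. The log2 changes of runx3, drl, cebpb and jak2a, the 4 with the smallest p, were -3.14, -1.95, -1.32 and -1.12. The gene myb, which encodes a transcription factor of blood stem cells, fell by 1.29 (SE 0.24, limma adjusted p = 9.8e-05). The gene runx1, whose product is the factor of the first definitive blood stem cells, changed by 0.21 (SE 0.25, limma adjusted p = 0.56). The summed signal of this list was higher early than late without overlap in both batches, 16683 to 35223 and 13571 to 15357 in batch 1, 17655 to 40809 and 11152 to 15160 in batch 2. That sum weighs bright probe sets most, among them cebpb, cebpa and cebpd, with median signals of 9904, 6238 and 3548 at days 0–1. The medians of runx1 and myb were 44.3 and 109, so the sum says little about these genes.

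Surface and junction genes of endothelium were measured for 15 of 38 listed, and the defining markers cdh5 and pecam1 were not analysed here. Of the 15, 7 fell and 2 rose, with a median of -1.07. The log2 changes were -5.62 for aqp8a.1, -3.15 for yrk, a Src-family kinase, -2.97 for podxl, which encodes podocalyxin, and -2.95 for plvapb, which encodes a diaphragm protein of capillary pores. The genes cldn5a, a tight junction claudin, and cd34 both changed by 0.01 and were not called. Both were dim, with median signals of 51.2 and 69.1 at days 0–1, and a dim probe set can understate a change. The rising genes were tpte and acvrl1, at 1.64 and 1.20. The acvrl1 rise was called in batch 1 (1.76, limma adjusted p = 0.045) and not in batch 2 (0.84, limma adjusted p = 0.064). The summed signal of the list overlapped between early and late arrays in both batches, at 9898 to 13352 and 8732 to 10882 in batch 1 and 10619 to 48658 and 15415 to 18341 in batch 2.

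Of the markers of mature blood cells, most leukocyte genes fell over both batches. Most erythrocyte and thrombocyte genes were not called there, although some erythrocyte genes fell strongly. Of 22 leukocyte genes 16 fell and 1 rose, with a median of -2.78, among them mmp13a, ncf1, ptprc and wasb with log2 changes of -6.19, -4.28, -3.59 and -2.53. The summed leukocyte signal was 105556 to 223147 at days 0–1 and 26033 to 75024 at days 10–14 in batch 1, and 89434 to 175664 and 24013 to 51625 in batch 2, without overlap. Of 18 erythrocyte genes 6 fell and 2 rose, with a median of -0.24, among them the globin genes hbaa1 and hbba2 with log2 changes of -4.58 and -2.22, cahz with -1.99 and slc4a1a with -2.05. Within batch 2, 8 of the 18 fell and 0 rose, beside 1140 and 1372 of all 8793 genes. Within batch 1, 2 fell and 1 rose, beside 972 and 1587. The summed erythrocyte signal was 3844 to 6088 and 2685 to 12458 in batch 1, with overlap, and 2623 to 14851 and 2035 to 2462 in batch 2, without overlap. Of 5 thrombocyte genes 1 fell, itga2b, by 0.93. The genes gata2a, fli1, lmo2 and tal1 are also expressed in blood cells, and the part of these cells in the falls of gata2a, fli1-A1 and lmo2 was not tested.

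Of 5 pericyte and smooth muscle genes, rgs5a, a pericyte marker in mammals, fell by 3.22, tagln and notch3 rose by 2.97 and 0.53, and acta2 was not called (0.75). Of 15 fibroblast genes 10 rose and 0 fell at the adjusted threshold of limma, with a median of 1.29, among them loxa, fn1b, fn1a and prrx1a at 3.35, 3.27, 2.36 and 1.96. Their summed signal was 52534 to 92248 at days 0–1 and 130594 to 159290 at days 10–14 in batch 1, and 34004 to 113615 and 163397 to 211965 in batch 2. Of 28 muscle genes 8 rose and 4 fell, with a median of 0.03. The actin gene acta1a, the desmin gene desma and the myogenic factor gene myog rose by 3.44, 2.87 and 1.77. The parvalbumin genes pvalb1 and pvalb2, the creatine kinase gene ckmb and the fusion receptor gene jam2a fell, with log2 changes of -2.94, -2.13, -2.15 and -1.67. The other 16 genes of the list, among them actc1b, ckma, mylpfa, tnnt3b and tpma of contractile muscle, were not called.

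**Figure D5:**
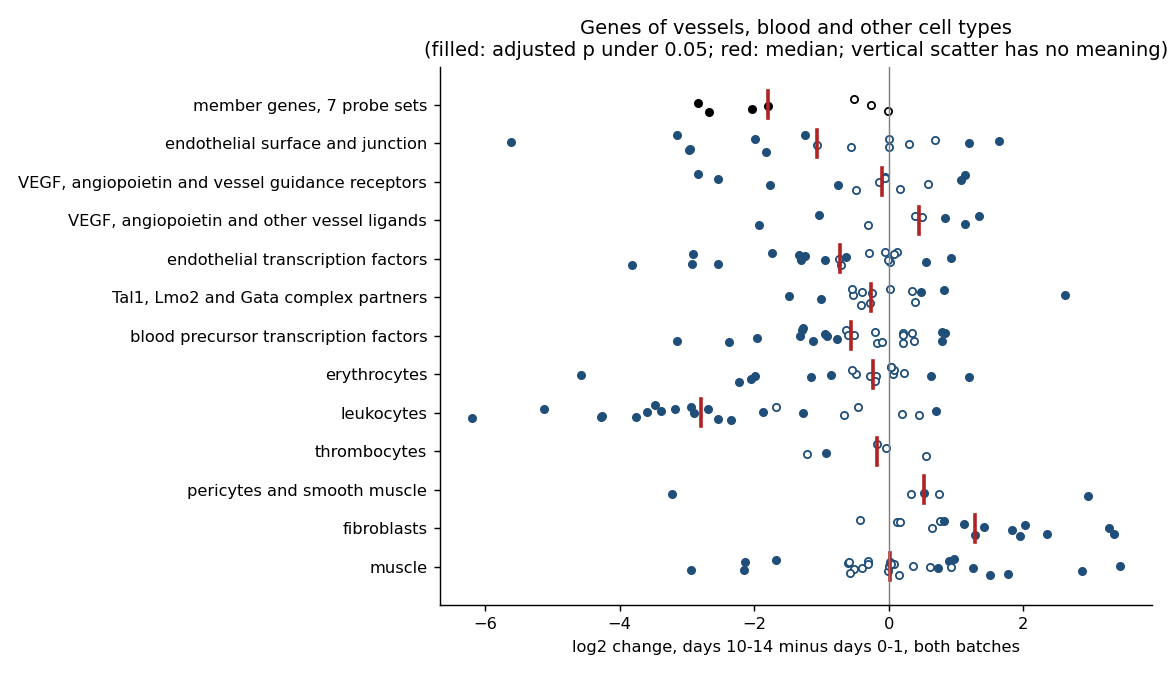
Log2 change from days 0–1 to days 10–14 over 31 arrays for the member probe sets (black) and for the genes of each list (blue), with the list's median (red) and filled points for an adjusted p under 0.05. Medians run from -2.78 for leukocytes to 1.29 for fibroblasts.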

How the data were processed

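RNA of cultured zebrafish muscle cells was measured on 32 Affymetrix Zebrafish Genome Arrays, and 31 were used. Per the labels, the authors made the deposited intensity values with MAS5 (version not given in the sources used here), as a linear signal per probe set, scaled per array to a trimmed mean. The study's RMA values were not analysed here.

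Removing 115 control probe sets from 15617 left 15502. Quantile normalization took the average quantiles of the 10 batch 1 arrays graded good as its target. Then 32 was added and log2 was taken, which understates changes of dim probe sets. Symbols came from the array annotation: 10795 probe sets had 1 symbol (10711 updated through the Entrez gene ID), 135 had several and 4572 had none. Listed genes were represented by their probe set with the highest mean log2 signal.

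Tests were two-sided, by lmFit and eBayes of limma 3.58.1 (R 4.3.3), with 4 day groups, hybridization run as a covariate and Benjamini-Hochberg adjustment over 15502 probe sets, and were tested on simulated data. Residual degrees of freedom were 23 over both batches, 7 in batch 1 and 13 in batch 2. Precision is limited by how many arrays there were. The study describes replicates A and B as biological duplicates for most days. The labels do not say for each array whether it came from a separate cell preparation, and where it did not, p-values measure only the spread between arrays, which may be technical. Named genes were the members, up to 4 genes per list with the smallest p, partners, ligands and receptors of the members, and the 3 genes most like each member. The genes erg, fli1rs, klf2a, cebpa, cebpd, myb, runx1, cldn5a, cd34, tpte, acvrl1, aplnra, notch3, acta2, pvalb1, pvalb2, ckmb, actc1b, ckma, mylpfa, tnnt3b and tpma were added after their values were seen. The members and lists were chosen with earlier results of these data known. Alternatives changed the scaling, the offset (16 or 64), a filter on dim probe sets (signal of 100 on 3 arrays), array quality, run, day groups, a GAPDH covariate, a replicate block and each array in turn.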

Additional observations from a re-analysis of the deposited data

Results flagged for a closer look

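Within batch and group of days, 35 groups of member signals were large enough to look for an array far from the others, and 6 held one. In independent groups, chance alone gives about 1 group in 20. The groups here share arrays and pool days and runs, so that this rate does not apply to them. Day 1 replicate B of batch 2 read 730 for kdrl, while the other 5 early arrays of that batch read 2963 to 5814. Day 14 replicate A of batch 2, graded poor, stood apart from the other 4 late arrays for 4 probe sets. On it fli1-A1 read 64 (others 158 to 218), fli1-S1 read 224 (others 56.4 to 80.0), tie1 read 67.4 (others 104 to 122) and lmo2 read 25.0 (others 52.2 to 59.4). Day 10 replicate C of batch 2 read 3.12 for tal1, and the other late arrays of the batch read 29.8 to 42.2.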

How the results depend on the processing

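The falls of kdrl, gata2a, lmo2 and fli1-A1 from days 0–1 to days 10–14 over both batches were called under all 12 alternatives and in all 31 fits that left out an array. No member change that was called reversed. The count of members called from days 0–1 to day 4 was 1 in place of 4 with good arrays alone, a setting with 3 arrays of day 4. With day 0 replicate B of batch 1 included, batch 1 had 1737 calls in place of 4302 and 2 members (gata2a and kdrl) in place of 4, and from day 4 to day 7 it had 0 members in place of 1. With the GAPDH covariate the count to day 4 stayed at 4, with tal1 in place of fli1-A1. Replicate letters were not taken to pair the arrays: in batch 1 none of the 10 correlations of same-lettered deviations passed 0.1 (-0.329 to 0.0663), and in batch 2 6 of 15 did for letter A (up to 0.605), 4 of 15 for B (up to 0.301), 1 of 10 for C (up to 0.267) and 0 of 1 for D. With the letter as a replicate block, the count from day 4 to day 7 was 0 (gata2a -1.38, limma adjusted p = 0.067), and the block changed no other count of members. With 6 day groups the batch difference of lmo2 was called, a count of 1 in place of 0. Leaving out an array gave 0 to 1 members from day 4 to day 7, 0 to 1 for the batch difference (lmo2, without day 1 replicate B of batch 2) and 2455 to 4223 calls in batch 2, the lowest without day 10 replicate A. The filter on dim probe sets left no value for tal1, and none for lmo2 within batch 1. The causes were not tested.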

Other observations

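Day 0 replicate B of batch 1, which was left out of the comparisons of the report and entered only as an alternative, read 3036 for kdrl, 755 for gata2a, 399 for lmo2, 1081 for tal1, 1820 for tie1, and 58.9 and 1136 for fli1-A1 and fli1-S1. Its tal1, tie1 and fli1-S1 signals were above those of all 31 other arrays. Its mean intensity before scaling was 0.546.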
